A study of Mus musculus with 18 samples.

Results

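The receptors of interleukins 2, 4, 7, 15 and 21 share the common gamma chain, and the genes described here encode that chain and the chains that pair with it: Il2ra, Il2rb, Il2rg, Il4ra, Il7r, Il15ra and Il21r. Their transcripts were followed in mouse naive CD4 T cells on Affymetrix Mouse Genome 430 2.0 arrays. All probe sets annotated to one of these symbols and to no other gene were taken, which gave 6 of the 7 genes, among 18193 genes with such a probe set on the array. They are read by 12 of the 45037 probe sets that are not array controls: 3 belong to Il4ra, 2 each to Il2ra, Il2rb, Il7r and Il15ra, and 1 to Il21r. No probe set carried the symbol Il2rg alone in the annotation used, so the common gamma chain itself is not analysed here.

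The cells were sorted from spleen and lymph nodes as CD4-positive cells with the surface profile of naive cells, among it the absence of CD44 and CD25, and CD25 is the protein made from Il2ra, so that gene's product was itself used in the sort. STAT3-deficient cells came from C57BL/6 mice with Cd4-Cre and the Stat3 allele that the labels call tm1Dlv, a conditional design in which the recombinase is made in T cells, and wild type (WT) cells came from C57BL/6J mice. Cells of each genotype were kept for 3 hours with IL-27 at 20 ng/ml, with IL-6 at 20 ng/ml or in medium alone, with 3 arrays in each of the 6 groups, described by the submitters as a biological triplicate. The sources used here do not state the age of the mice or whether each array had its own mouse, and p-values therefore measure the spread between these arrays.

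Each of these receptors hands its signal to JAK1 and to JAK3, which is bound to the common gamma chain. From there the signal passes mainly to STAT5 (IL-2, IL-7 and IL-15), STAT6 (IL-4) or STAT3 (IL-21). Il7r and Il4ra are made by resting naive T cells, which depend on IL-7 for survival, whereas Il2ra is induced by activation. IL-6 and IL-27 signal through another shared chain, gp130, and reach STAT3, among other factors, so that the design asks how far a gp130 cytokine alters the receptors for the gamma chain cytokines, and whether STAT3 is needed for it.

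The promoter windows are shown for the 3 genes called with IL-6 in WT cells, as described below. Those of Il15ra, called with IL-27, are not shown. The 3 genes are Il4ra and Il21r, which are neighbours on chromosome 7 in the order of protein-coding genes, and Il7r on chromosome 15. Each window runs from 250 bases before to 50 after the RefSeq start of the gene (build GRCm38.p6). It is written 5′ to 3′ on the strand of the gene. Capitals mark a match to the STAT motif TTCNNNGAA.
Il4ra, chr7:125552021-125552320, plus strand: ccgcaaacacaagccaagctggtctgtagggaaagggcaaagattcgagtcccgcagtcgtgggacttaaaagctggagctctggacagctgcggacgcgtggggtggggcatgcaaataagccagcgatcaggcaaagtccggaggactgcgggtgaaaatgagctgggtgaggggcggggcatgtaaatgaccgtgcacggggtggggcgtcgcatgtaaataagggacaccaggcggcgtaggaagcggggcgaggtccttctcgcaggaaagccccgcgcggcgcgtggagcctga
Il21r, chr7:125603179-125603478, plus strand: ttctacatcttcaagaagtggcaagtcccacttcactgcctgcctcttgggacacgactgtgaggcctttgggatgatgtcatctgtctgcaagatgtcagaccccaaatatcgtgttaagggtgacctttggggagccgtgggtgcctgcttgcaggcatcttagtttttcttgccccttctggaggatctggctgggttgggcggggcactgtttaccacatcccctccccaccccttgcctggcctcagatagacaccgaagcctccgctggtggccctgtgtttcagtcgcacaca
Il7r, chr15:9529827-9530126, minus strand: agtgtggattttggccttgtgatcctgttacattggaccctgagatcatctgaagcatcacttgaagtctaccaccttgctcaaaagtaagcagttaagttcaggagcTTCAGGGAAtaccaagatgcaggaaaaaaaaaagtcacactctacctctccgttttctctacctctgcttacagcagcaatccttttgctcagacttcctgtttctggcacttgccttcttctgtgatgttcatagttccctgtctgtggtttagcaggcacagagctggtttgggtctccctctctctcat
Both strands were searched for TTCNNNGAA, for the STAT6 site, which has the same ends and a spacer longer by a single base, and for the interferon response element, a pair of GAAA repeats with a short gap. The Il7r window held a single match, TTCAGGGAA, which begins 142 bases before the start, and the windows of Il4ra and Il21r held none of these letters, nor did those of Il2ra, Il15ra or Il2rg. Of 32851 windows of this length, 8.3% held TTCNNNGAA, 6.95% the STAT6 site and 3.44% the interferon response element. These matches are a description of letters, and no binding was measured here.

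Signals are given below in the units of the deposited table after quantile normalisation, one value per array in replicate order, and changes as log2 differences of the signal plus 32, with the standard error (SE) of a limma model for 3 arrays per group. A probe set was called where the adjusted p was under 0.05 over the 26860 probe sets tested, and all 12 receptor probe sets were among these. The deposited medians of the arrays lay between 104.4 and 190.3 units, and each array correlated with the others of its group at a mean of 0.957 to 0.973. The summed signal of 7 T cell marker genes was high in all groups, between 56210 and 82200 units, and Foxp3, the defining factor of regulatory T cells, lay above the median of its array on 1 array of 18. The other 3 genes of the regulatory T cell list, Tnfrsf18, Ctla4 and Ikzf2, were expressed, and the summed signal of the 4 was 5487 to 10280 units. Stat3 probe set 1460700_at read 1126 to 1283 units in STAT3-deficient cells in medium, against 2293 to 2940 units in WT cells in medium. With IL-27 the same probe set read 3340 to 4608 units in STAT3-deficient cells, against 7231 to 8547 units in WT cells, and with IL-6 it read 2208 to 2525 units, against 9217 to 10320 units in WT cells. The STAT3-deficient signal with IL-27 thus lay above that of WT cells in medium, and the part of the transcript that the probe set reads was not compared with the deleted part. In medium, of the other 3 Stat3 probe sets, 1426587_a_at was also lower, at 1018 to 1125 units against 1775 to 2264 units in WT, 1459961_a_at overlapped between the genotypes, and 1424272_at was higher, at 337.5 to 522 units against 225.9 to 245.1 units in WT. In bulk RNA, fewer cells of a type and less RNA per cell cannot be told apart.

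In WT cells, IL-6 raised the receptor chains for IL-4 and IL-21 and lowered that for IL-7. Of the 12 receptor probe sets, 3 were called higher and 2 were called lower with IL-6 than in medium, and 5 had an unadjusted p under 0.05. Among all probe sets tested, 2.97% were called higher and 3.22% lower. The median change of the receptor probe sets was 0.26, against -0.01 over all tested.

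Il4ra encodes the alpha chain that binds IL-4 and, with Il13ra1, also serves IL-13. Its brightest probe set, 1421034_a_at, read 3848, 3401 and 3621 units in WT cells with IL-6, against 2412, 2019 and 2140 units in WT cells in medium. All 3 arrays with IL-6 lay above all arrays of every other group. The change was 0.72 ± 0.09 (SE, n = 3 per group, 1.65-fold, adjusted p = 3.05e-05). A second probe set, 1423996_a_at, read 1506, 1189 and 1056 units with IL-6 and 614.3, 598.5 and 549.1 units in medium, again with no overlap, and rose by 1.04 ± 0.21 (2.05-fold, adjusted p = 0.00346). The third, 1447858_x_at, was dim, at 157.9 to 176.8 units with IL-6 and 86.8 to 173.8 units in medium, and its change of 0.26 ± 0.23 was not called (adjusted p = 0.694).

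Il21r encodes the chain that binds IL-21, a cytokine of follicular helper and Th17 cells. Its probe set 1450456_at read 1904, 1983 and 1912 units in WT cells with IL-6, against 1090, 1165 and 930.2 units in WT cells in medium. The IL-6 arrays lay within a narrow range, above all arrays of the other 5 groups. The change was 0.85 ± 0.13 (1.80-fold, adjusted p = 0.00022).

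Il7r encodes the alpha chain of the IL-7 receptor on which naive T cells rely for survival. Probe set 1448575_at read 16340, 17960 and 17010 units in WT cells with IL-6, against 26910, 25280 and 28130 units in WT cells in medium. Probe set 1448576_at read 8976, 8603 and 7959 units with IL-6, against 17820, 15420 and 15180 units in medium. In both probe sets the groups did not overlap. The changes were -0.65 ± 0.09 (1.56-fold lower, adjusted p = 9.63e-05) and -0.92 ± 0.15 (1.89-fold lower, adjusted p = 0.000466). Markers of T cells moved the same way in these arrays. With IL-6 in WT, 9 of 12 probe sets of T cell markers and all 3 of the naive markers Ccr7 and Lef1 were called lower. Their medians were -0.70 and -0.71, and 3.22% of all probe sets tested were called lower. The part of this in the Il7r values was not tested. The summed T cell marker signal was 56210 to 57890 units with IL-6, against 77560 to 82200 units in medium.

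**Figure D1:**
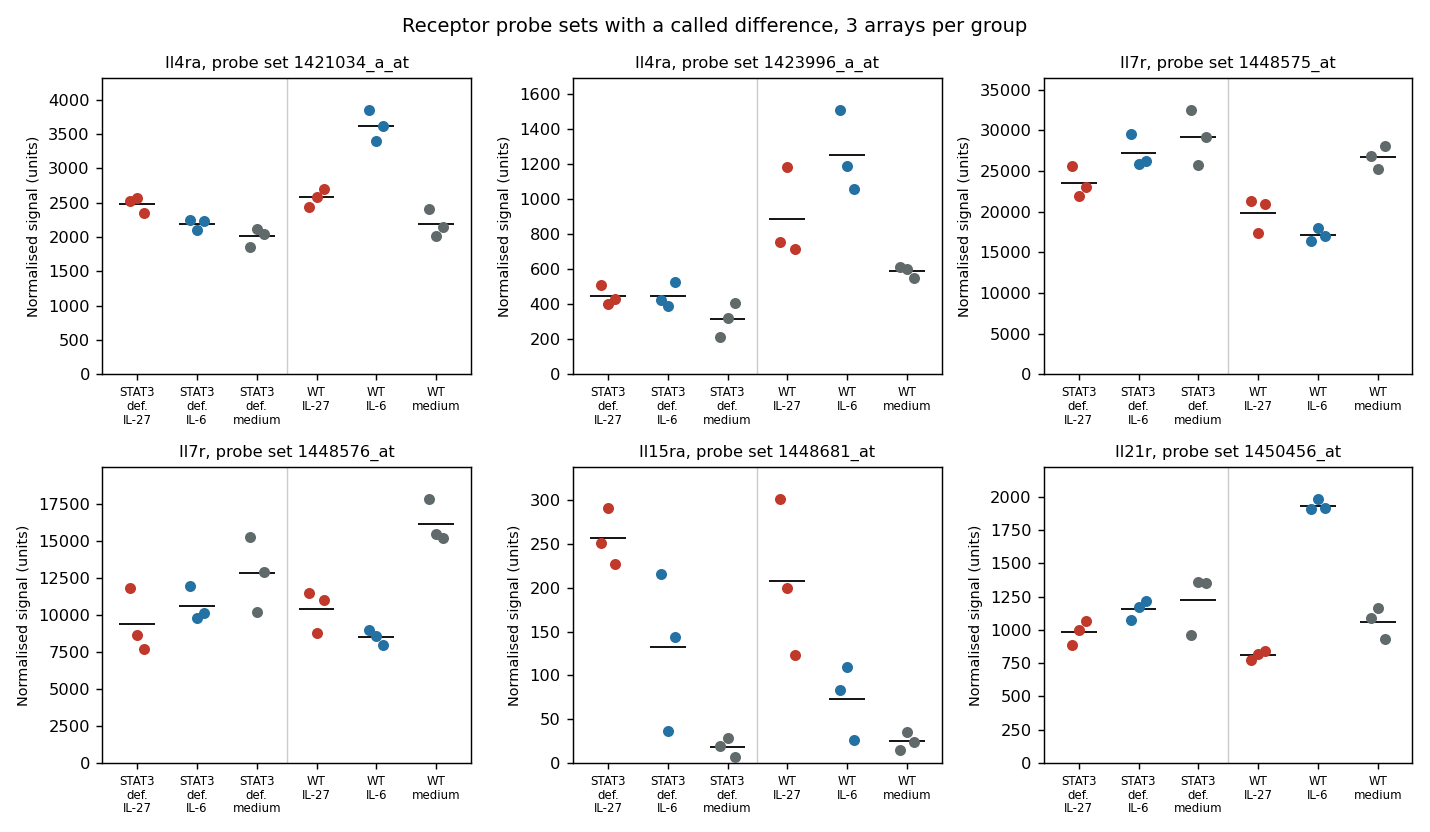
Normalised signal (vertical axis, units, from 0) of the 6 receptor probe sets with at least one called difference, in STAT3-deficient cells (left of the grey line) and WT cells (right), with IL-27 (red), IL-6 (blue) and medium (grey). Each point is 1 array and each bar the mean of 3; for Il4ra 1421034_a_at and Il21r the 3 WT arrays with IL-6 lie above all others.

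IL-27 lowered Il7r in WT cells and raised Il15ra, and no change was called for Il4ra or Il21r. Against medium, 1 receptor probe set was called higher and 2 lower, while 1.99% of all probe sets tested were called higher and 1.07% lower. Another 4 had an unadjusted p under 0.05, 7 in all. The IL-27 and the IL-6 comparison share the medium arrays, so they are not independent.

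Il15ra encodes the chain that binds IL-15 with high affinity and presents it to cells that carry Il2rb and the common gamma chain. Probe set 1448681_at read 301.5, 200.1 and 123.1 units in WT cells with IL-27, against 15.2, 35.9 and 24.6 units in WT cells in medium. The groups did not overlap, but none of the medium arrays and 2 of the IL-27 arrays exceeded the median of their own array, so the size of the change depends on the constant added before the logarithm. It was 2.02 ± 0.43 (adjusted p = 0.00847), and without WT IL-27 replicate 1 it was 1.75 (adjusted p = 0.0615). Elsewhere the probe set exceeded the median on 3 STAT3-deficient IL-27 and 2 STAT3-deficient IL-6 arrays. It did so on no WT IL-6 or STAT3-deficient medium array. It thus passed the filter on dim signal, at least 3 arrays above their own median, through the groups where it was high. The other Il15ra probe set, 1422397_a_at, read 200.2, 143.6 and 198.5 units with IL-27, against 99.5, 67.1 and 110.3 units in medium, and its change of 0.78 ± 0.23 was not called (adjusted p = 0.0837).

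Il7r probe set 1448575_at read 21330, 17420 and 20910 units with IL-27 in WT cells, below all 3 medium arrays, and its change was -0.43 ± 0.09 (1.35-fold lower, adjusted p = 0.00896). Probe set 1448576_at read 11470, 8739 and 10980 units with IL-27 and changed by -0.64 ± 0.15 (1.56-fold lower, adjusted p = 0.0206). Without WT IL-27 replicate 2, neither was called (-0.34, adjusted p = 0.0736, and -0.52, adjusted p = 0.144), and the second was also lost without WT medium replicate 1 (adjusted p = 0.119) or replicate 2 (adjusted p = 0.054). Both calls were lost as well with the deposited scaling (adjusted p = 0.0727 and 0.0547), with median centring (0.224 and 0.17) and with no variance trend (0.077 for each). T cell markers were again called lower with IL-27 in WT, in 4 of 12 probe sets, where 1.07% of all probe sets tested were called lower.

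For the other chains no change was called. Il21r read 772.6, 817.1 and 839.2 units with IL-27, below all 3 medium arrays in WT, with a change of -0.37 ± 0.13 that was not called (adjusted p = 0.17). Il4ra 1421034_a_at read 2441, 2589 and 2704 units, above all 3 medium arrays, and its change of 0.23 ± 0.09 was not called either (adjusted p = 0.257). Il4ra 1423996_a_at read 752, 1183 and 715.8 units, also above all 3 medium arrays, with an uncalled change of 0.53 ± 0.21 (adjusted p = 0.259).

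Set directly against each other in WT cells, the cytokines differed in 2 receptor genes. The IL-27 minus IL-6 difference was -1.22 ± 0.13 for Il21r (2.34-fold lower, adjusted p = 8.12e-06) and -0.49 ± 0.09 for Il4ra 1421034_a_at (1.40-fold lower, adjusted p = 0.0048), with no overlap of the arrays in either. These were the 2 probe sets called lower, none was called higher, and 7 had an unadjusted p under 0.05. Over all probe sets tested, 1.28% were called higher with IL-27 and 1.05% were called lower. Neither Il7r probe set was called, at 0.21 ± 0.09 (adjusted p = 0.411) and 0.28 ± 0.15 (adjusted p = 0.596), nor was Il15ra 1448681_at, at 1.22 ± 0.43 (adjusted p = 0.218).

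**Figure D2:**
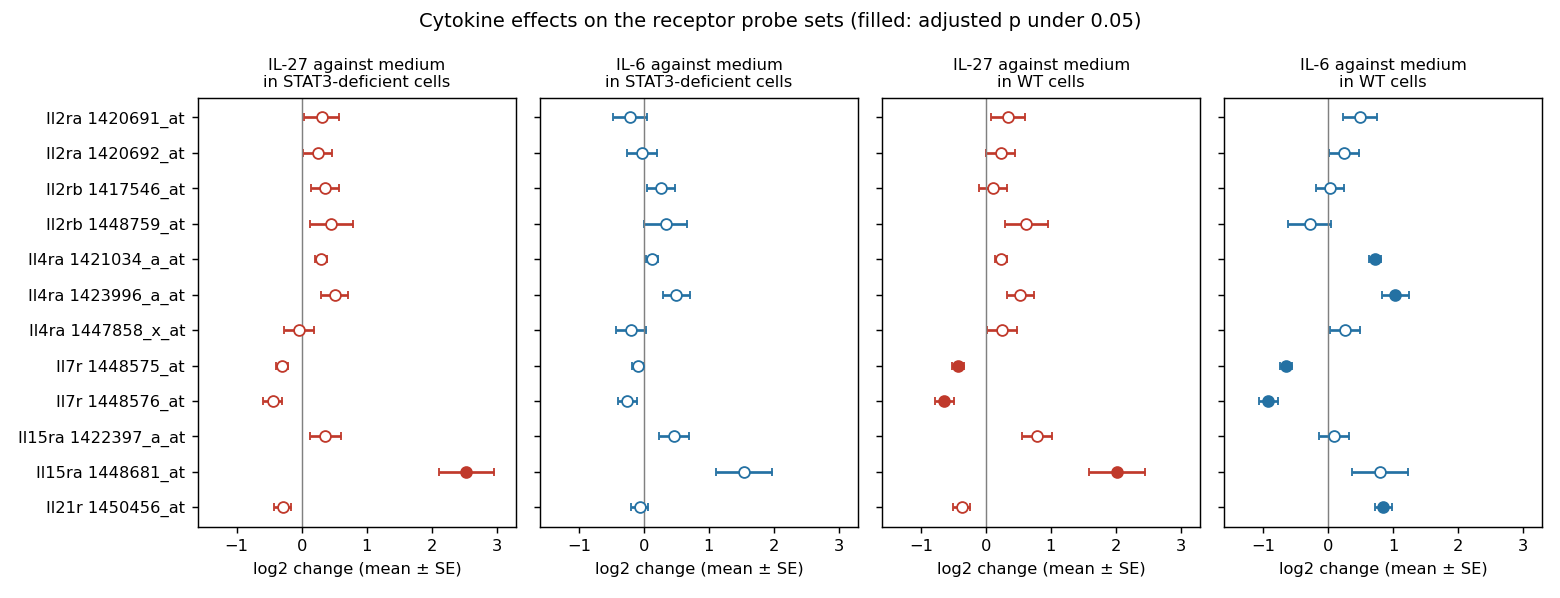
Change with each cytokine against medium (horizontal axis, log2, mean ± SE of the limma model, 3 arrays per group) for the 12 receptor probe sets, in STAT3-deficient cells (left panels) and WT cells (right panels), IL-27 in red and IL-6 in blue. Filled points have an adjusted p under 0.05: 1 with IL-27 and 0 with IL-6 in STAT3-deficient cells, 3 with IL-27 and 5 with IL-6 in WT cells.

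In STAT3-deficient cells, none of the receptor changes made by IL-6 in WT cells was called. By limma, 0 of the 12 receptor probe sets were called with IL-6 against medium, and 2 had an unadjusted p under 0.05, while 1.33% of all probe sets tested were called higher and 0.0968% lower. Il4ra 1421034_a_at read 2251, 2108 and 2231 units with IL-6, against 1861, 2123 and 2049 units in medium, and changed by 0.13 ± 0.09 (adjusted p = 0.849). Il21r read 1073, 1173 and 1217 units with IL-6, against 960, 1356 and 1354 units in medium, a change of -0.07 ± 0.13 (adjusted p = 0.96). The second Il4ra probe set, 1423996_a_at, read 425.8, 387.2 and 527.8 units with IL-6, against 212.9, 319.4 and 408.3 units in medium, and its change of 0.50 ± 0.21 was not called (adjusted p = 0.537, unadjusted p = 0.0283). In all 3 probe sets the groups overlapped.

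Il7r 1448575_at read 29510, 25870 and 26260 units with IL-6 in STAT3-deficient cells, against 32490, 25760 and 29200 units in medium, and changed by -0.10 ± 0.09 (adjusted p = 0.901). Probe set 1448576_at changed by -0.25 ± 0.15 (adjusted p = 0.783). The largest change was in Il15ra 1448681_at, at 215.9, 36.9 and 144.1 units with IL-6 against 19.1, 28.4 and 7.44 units in medium. Its groups did not overlap, and its change of 1.54 ± 0.43 was not called (adjusted p = 0.106), but it was 2.07 without STAT3-deficient IL-6 replicate 2 (adjusted p = 0.00692).

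The difference between the genotypes was tested as an interaction, the IL-6 effect in STAT3-deficient cells minus that in WT cells. It was called in 3 of the 12 receptor probe sets, 1 higher and 2 lower, where 1.25% of all probe sets tested were called higher and 0.964% lower. Il21r had the largest called difference, at -0.92 ± 0.18 (adjusted p = 0.00902), followed by Il4ra 1421034_a_at at -0.59 ± 0.13 (adjusted p = 0.0185) and Il7r 1448575_at at 0.55 ± 0.13 (adjusted p = 0.0283). The second probe sets ran the same way without a call: Il4ra 1423996_a_at stood at -0.54 ± 0.30 (adjusted p = 0.539) and Il7r 1448576_at at 0.67 ± 0.21 (adjusted p = 0.145, and 0.0117 to 0.346 over the alternatives). With the number in the sample titles as a block, Il7r 1448576_at was called, over all arrays (adjusted p = 0.0148) or within genotype (adjusted p = 0.0117). For Il15ra 1448681_at the difference was 0.74 ± 0.60 (adjusted p = 0.73), with a 95% interval that allows a gain or a loss.

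With each array centred on its median in place of quantile normalisation, none of the 3 differences was called. Without a variance trend Il21r alone was called, and the Il7r difference was also lost with the deposited scaling (adjusted p = 0.079) and with no filter (adjusted p = 0.0617). The Il21r difference kept its call whichever single array was left out. That of Il4ra lost it without WT medium replicate 2 (-0.54, adjusted p = 0.0632), WT IL-6 replicate 1 (-0.55, adjusted p = 0.0579) or STAT3-deficient medium replicate 2 (-0.56, adjusted p = 0.0574). The Il7r difference lost its call without any one of 7 arrays, which were WT medium replicates 1 and 3, WT IL-6 replicates 1 and 3, STAT3-deficient medium replicates 2 and 3 and STAT3-deficient IL-6 replicate 1, with adjusted p from 0.0505 to 0.0938. T cell markers differed in the same direction as Il7r, with 4 of 12 probe sets called higher in this comparison, where 1.25% of all probe sets tested were. The part of the T cell markers in the Il7r difference was not tested.

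**Figure D3:**
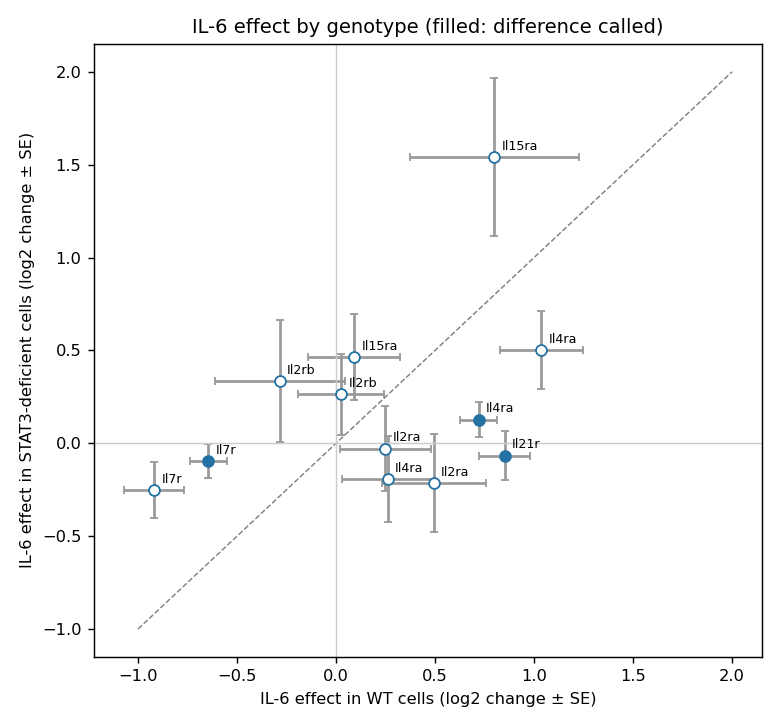
Change with IL-6 against medium in STAT3-deficient cells (vertical axis) against that in WT cells (horizontal axis), in log2 with the SE of each as grey bars, for the 12 receptor probe sets. Filled points are the 3 with a called difference between the genotypes (Il21r, Il4ra and Il7r), and the dashed line marks equal effects.

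Il15ra rose with IL-27 in STAT3-deficient cells too. In STAT3-deficient cells, 1 receptor probe set was called higher with IL-27 than in medium and none lower, where 2.62% of all probe sets tested were called higher and 0.983% lower. This was Il15ra 1448681_at, at 250.6, 291.5 and 227.3 units with IL-27, against 19.1, 28.4 and 7.44 units in medium, with no overlap. It rose by 2.54 ± 0.43 (adjusted p = 0.000877). This probe set passed the filter on dim signal only through cytokine groups, and a filter on at least 9 arrays removed it. All 3 arrays with IL-27, and none in medium, exceeded the median of their own array, so the size of this change too depends on the added constant: it was 3.03 with a constant of 16 and 1.96 with 64, called in both. The other Il15ra probe set read 119.4, 142 and 155.8 units with IL-27, against 115.1, 108.3 and 79.8 units in medium, and changed by 0.37 ± 0.23 (adjusted p = 0.529).

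Both Il7r probe sets were lower with IL-27 in STAT3-deficient cells without a call, by -0.31 ± 0.09 (adjusted p = 0.0819) and -0.45 ± 0.15 (adjusted p = 0.138). The first read 25620, 21910 and 23050 units with IL-27, against 32490, 25760 and 29200 units in medium, with no overlap. Both were called without STAT3-deficient medium replicate 2 (-0.39, adjusted p = 0.0312, and -0.60, adjusted p = 0.043), which made 3 calls in place of 1. The second alone was called without STAT3-deficient IL-27 replicate 1 (-0.62, adjusted p = 0.0232). With the number in the sample titles as a block over all arrays, both were called (adjusted p = 0.0255 and 0.0145). The same held with the block within genotype (adjusted p = 0.0147 and 0.0119).

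No difference between the genotypes in the IL-27 effect was called for any receptor probe set, and by limma none had an unadjusted p under 0.05. Over all probe sets tested, 0.00372% were called higher and 0.00372% lower. The values for the genes that IL-27 changed in WT were 0.52 ± 0.60 for Il15ra 1448681_at, with a 95% interval of -0.74 to 1.78, and 0.13 ± 0.13 and 0.19 ± 0.21 for the Il7r probe sets. For Il7r 1448575_at the 95% interval was -0.15 to 0.40, which includes a loss of most of the WT effect. With IL-27 set against IL-6 in STAT3-deficient cells, 0 of 12 receptor probe sets were called and 2 had an unadjusted p under 0.05, where 0.197% of all probe sets tested were called higher and 0.00745% lower.

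In medium the genotypes differed in 1 of the 12 receptor probe sets, called lower, and 2 had an unadjusted p under 0.05. Over all probe sets tested, 11.3% were called higher and 13% lower in STAT3-deficient cells, 24.3% in all. With the deposited scaling 5 of 12 receptor probe sets were called beside 35.5% of all, and with median centring 4 of 12 beside 42.4%. The called probe set was Il4ra 1423996_a_at, at 212.9, 319.4 and 408.3 units in STAT3-deficient cells and 614.3, 598.5 and 549.1 units in WT cells, without overlap. Its change was -0.88 ± 0.21 (1.84-fold lower, adjusted p = 0.00616). The brighter Il4ra probe set 1421034_a_at did not show this, at -0.12 ± 0.09 (adjusted p = 0.368), so the Il4ra probe sets disagreed between genotypes after quantile normalisation. With median centring 1421034_a_at was called lower as well, at -0.78 (adjusted p = 0.00117).

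The comparison of genotypes in medium depended on scaling. Of the calls over all probe sets, 46.4% were higher in STAT3-deficient cells after quantile normalisation, 64.2% on the scale as deposited and 11.4% after median centring, and the median change of all probe sets was 0.00, 0.18 and -0.36. Il4ra 1423996_a_at kept its call in all of these. Median centring also moved the share of higher calls with IL-27 in STAT3-deficient cells to 98.2% in place of 72.7%, and that of the IL-6 interaction to 72.4% in place of 56.4%. B cell markers were called higher in STAT3-deficient cells in medium in 5 of 6 probe sets, with a median change of 1.37, for example Cd79b, a chain of the B cell receptor, at 2.46 ± 0.44 (adjusted p = 0.000775). Their summed signal was 1928 to 3893 units over the STAT3-deficient groups and 922.2 to 1198 units over the WT groups, with Cd79a, Cd79b, Blnk and Pax5 below the median on most arrays. Of 10 probe sets of myeloid markers, 3 were called higher and 1 lower, and their summed signal was 920.7 to 1657 units in STAT3-deficient cells in medium and 728.5 to 1034 units in WT cells in medium. Of 12 probe sets of T cell markers 1 was called higher and 4 lower, and of 9 of CD8 T and NK cell markers 2 and 2. Over all probe sets tested, 11.3% were called higher and 13% lower in this comparison. The part of B cells or myeloid cells in the Il4ra difference was not tested.

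Il2ra and Il2rb were dim, and no difference was called for either. Il2ra, the alpha chain that gives the IL-2 receptor its high affinity, read 63.2 to 242.1 units on probe set 1420691_at and 84.3 to 262.4 units on 1420692_at over all arrays. Its highest group means were in STAT3-deficient cells with IL-27, at 187.4 ± 47.4 and 178.4 ± 73.6 units (SD, n = 3), and its lowest in WT cells in medium, at 94.4 ± 29.5 and 100.7 ± 16.5 units. In WT cells in medium no array exceeded its own median for either probe set. With IL-6 in WT the change of 1420691_at was 0.49 ± 0.26 (adjusted p = 0.402), and all neighbouring groups in the order of its means overlapped. With the deposited scaling both probe sets were called higher in STAT3-deficient than in WT cells in medium, at 1.02 (adjusted p = 0.00836) and 0.91 (adjusted p = 0.0059).

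Il2rb encodes the chain that IL-2 and IL-15 receptors share. Probe set 1448759_at read 199, 432.8 and 325.6 units in STAT3-deficient cells with IL-27, 251.5, 302.8 and 280.7 with IL-6 and 174.4, 295.6 and 186.7 in medium. In WT cells it read 211.2, 156.4 and 251.4 units with IL-27, 151.9, 135.4 and 31.9 with IL-6 and 119, 121.4 and 121.7 in medium. Every STAT3-deficient array thus lay above all WT arrays in medium, and the difference in medium was 0.68 ± 0.33 (adjusted p = 0.136). It was called with the deposited scaling, at 1.17 (adjusted p = 0.00795), and without WT IL-6 replicate 3, the array with the value of 31.9 units. The other probe set, 1417546_at, lay between 118.1 and 274.3 units, overlapped in all groups and had no call.

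**Figure D4:**
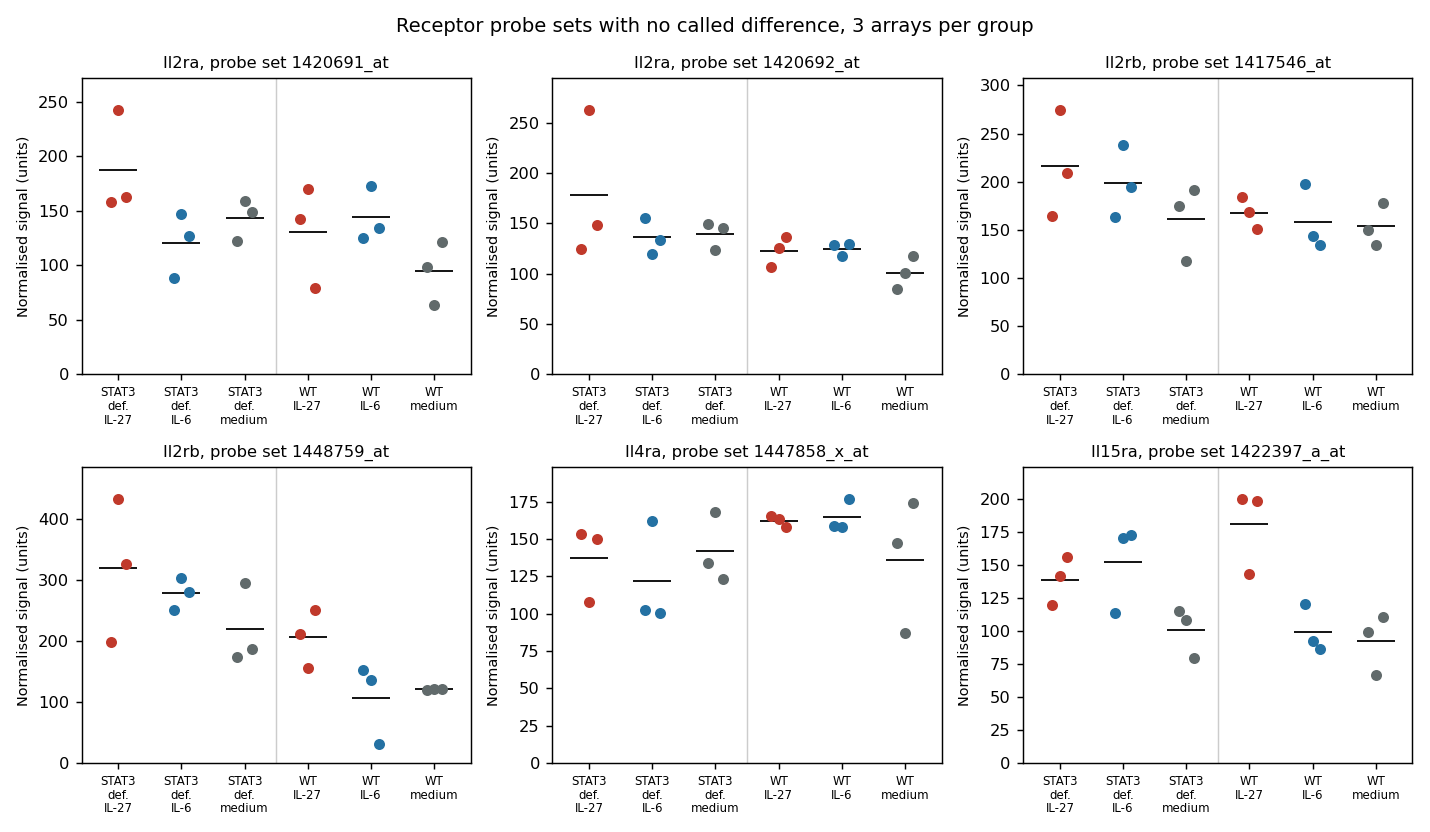
Normalised signal (vertical axis, units, from 0) of the 6 receptor probe sets without a called difference, laid out by genotype and treatment, with 1 point per array and a bar for the mean of 3. In Il2rb 1448759_at all STAT3-deficient arrays, at 174.4 units or more, lie above the 3 WT medium arrays, at 121.7 units or less, and in Il2ra 1420692_at the same holds by a narrow margin (119.9 against 117.4 units).

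The order of the groups differed between the receptor genes. Il4ra 1421034_a_at was highest in WT cells with IL-6 (3623 ± 223 units, SD, n = 3) and lowest in STAT3-deficient cells in medium (2011 ± 135 units), and the WT IL-27 and STAT3-deficient IL-27 groups overlapped, as did the 3 lowest groups. Il21r was highest in WT cells with IL-6 (1933 ± 43.5 units) and lowest in WT cells with IL-27 (809.6 ± 33.9 units), with the 4 groups between them overlapping in sequence. Il7r 1448575_at was lowest in WT cells with IL-6 (17100 ± 814 units) and highest in STAT3-deficient cells in medium (29150 ± 3363 units). Il15ra 1448681_at was highest with IL-27 in either genotype, and each neighbouring pair of groups overlapped.

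The genes whose signals ran most like the brightest probe set of a changed receptor over the 18 arrays were named by Pearson correlation, as a description. For Il4ra these were Socs3, the feedback inhibitor of gp130 (r = 0.95), Vmp1, a membrane protein of autophagy (r = 0.94), and Arid5a, an RNA-binding protein that stabilises cytokine transcripts (r = 0.94). For Il7r they were Rgs14, a regulator of G protein signalling (r = 0.96), Acss1, a mitochondrial acetyl-CoA synthetase (r = 0.95), and Mfhas1 (r = 0.95). For Il21r they were the kinase gene Map4k4 (r = 0.93), Bcl2l11, which encodes the death factor Bim (r = 0.92), and the zinc transporter gene Slc30a4 (r = 0.86). The brightest Il15ra probe set, 1422397_a_at, which itself had no call, ran closest to Asb13 (r = 0.87), Tmem140 (r = 0.81) and Morc3 (r = 0.81). All of these share the arrays and their genotype and treatment groups.

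Of the family's ligands, Il21 alone passed the filter on dim signal, 1 of 8 genes, with 2 probe sets. Both were called higher with IL-6 in WT cells, 1447288_at by 2.73 ± 0.34 (adjusted p = 2.44e-05) and 1450334_at by 1.09 ± 0.29 (adjusted p = 0.0278). Probe set 1447288_at read 282.4, 403.8 and 467.7 units in WT cells with IL-6, against 36.8, 34.8 and 19.5 units in WT cells in medium. It exceeded the median of its array on these 3 IL-6 arrays and on no other of the 18, so it passed the filter through the group where it was high, and the sizes of its differences depend on the added constant. Probe set 1450334_at read 95.9, 322.2 and 236.3 units with IL-6, against 56.4, 94.6 and 81 units in medium, and exceeded the median on 2 of the IL-6 arrays and none of the medium arrays. Neither was called with IL-6 in STAT3-deficient cells, at -0.53 ± 0.34 and -0.65 ± 0.29, and the difference between genotypes was called for both, at -3.26 ± 0.49 (adjusted p = 0.000687) and -1.74 ± 0.41 (adjusted p = 0.028). The brighter probe set, 1450334_at, lost its IL-6 call in WT without any of WT medium replicates 1 and 3 and WT IL-6 replicates 2 and 3, with adjusted p up to 0.192. Crlf2, the receptor chain of the cytokine TSLP that pairs with Il7r, was called higher with both cytokines in both genotypes. It stood at 0.97 ± 0.15 with IL-27 and 0.70 ± 0.15 with IL-6 in STAT3-deficient cells, and at 0.75 ± 0.15 with IL-27 and 0.93 ± 0.15 with IL-6 in WT cells. In medium Crlf2 was lower in STAT3-deficient cells by -1.20 ± 0.15 (adjusted p = 4.36e-05), and Il13ra1, the partner of Il4ra in the IL-13 receptor, was not called in these comparisons.

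Among 41 probe sets of 18 proximal signalling genes, IL-6 gave 4 higher and 5 lower calls in WT cells, where 2.97% and 3.22% of all probe sets tested were called. In STAT3-deficient cells it gave 3 higher and none lower, where the shares over all were 1.33% and 0.0968%. The list includes Stat3 itself, which was called higher with IL-6 in both genotypes on its brightest probe set. Its mean on 1460700_at went from 2599 to 9603 units in WT and from 1182 to 2403 units in STAT3-deficient cells. Means also rose in both genotypes on 1426587_a_at and 1459961_a_at, and on 1424272_at in WT only. Stat3 holds several probe sets, so the calls are not counts of genes. Jak3, the kinase bound to the common gamma chain, rose in WT by 1.30 ± 0.22 with IL-27 (adjusted p = 0.00122) and by 1.5 ± 0.22 with IL-6 (adjusted p = 0.000148). In STAT3-deficient cells its changes were 0.41 ± 0.22 (adjusted p = 0.433) and -0.16 ± 0.22 (adjusted p = 0.945), and the IL-6 difference between genotypes was called, at -1.66 ± 0.31 (adjusted p = 0.00579). For Jak1, the other kinase of these receptors, the probe set that changed most, 1433805_at, ran the other way in WT. It fell by 0.51 with IL-27 (SE 0.09, adjusted p = 0.00222) and by 0.72 with IL-6 (SE 0.09, adjusted p = 3.05e-05). The IL-6 difference between genotypes was 0.62 ± 0.13 (adjusted p = 0.0146) for this probe set. Stat5a and Pik3r1 were also called lower with IL-6 in WT, at -0.48 ± 0.12 and -0.49 ± 0.12, each on the probe set that changed most. The other probe sets of these genes are not given here. Without WT medium replicate 3 the lower calls of this list were 2 in place of 5.

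**Figure D5:**
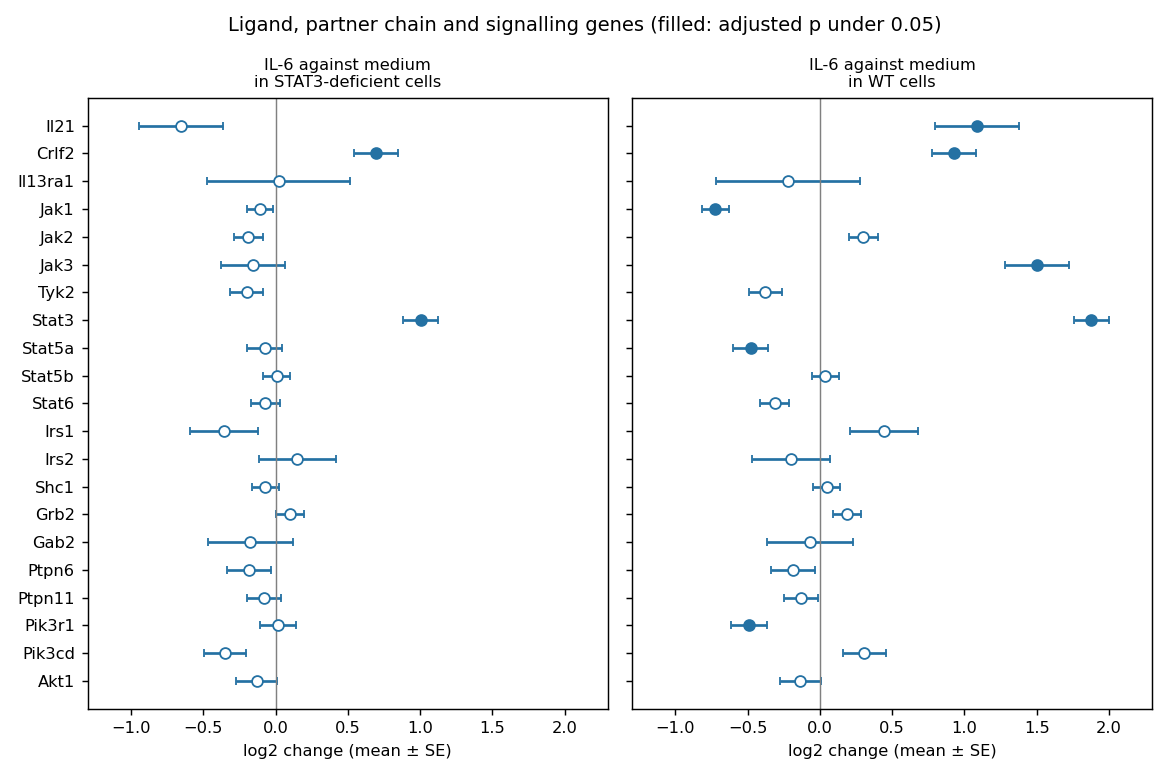
Change with IL-6 against medium (horizontal axis, log2, mean ± SE, 3 arrays per group) for the ligand, partner chain and proximal signalling genes that passed the filter, each by its brightest probe set, in STAT3-deficient cells (left) and WT cells (right). Filled points have an adjusted p under 0.05; Jak3 and Il21 are filled in WT cells only, and Crlf2 and Stat3 in both.

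Feedback inhibitors were called higher in 5 of 30 probe sets with either cytokine in WT and none lower, where 1.99% of all probe sets were called higher with IL-27 and 2.97% with IL-6. In STAT3-deficient cells 5 were higher with IL-27 and 3 with IL-6, beside 2.62% and 1.33% of all. The 30 probe sets belong to 12 genes, and Socs3 holds more than 1 of them, so these are not counts of genes. Socs3 rose in WT by 3.28 ± 0.31 with IL-27 and by 5.13 ± 0.31 with IL-6 on probe set 1455899_x_at, and its IL-6 difference between genotypes was -3.99 ± 0.44 (adjusted p = 2.92e-05). Socs1, which inhibits JAK kinases of several cytokine receptors, rose by 3.74 ± 0.20 with IL-27 and 1.90 ± 0.20 with IL-6 in STAT3-deficient cells, and by 3.28 ± 0.20 and 1.96 ± 0.20 in WT cells. Its IL-6 difference was -0.06 ± 0.29 (adjusted p = 0.967). Cish, a classical STAT5-induced inhibitor of IL-2 receptor signalling, rose in WT by 0.69 ± 0.17 with IL-27 (adjusted p = 0.0229) and by 1.23 ± 0.17 with IL-6 (adjusted p = 5.07e-05).

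Genes known as STAT5 targets in T cells, downstream of the IL-2 and IL-7 receptors, were called higher in 15 of 36 probe sets with IL-27 and 8 with IL-6 in STAT3-deficient cells, and in 16 with IL-27 and 14 with IL-6 in WT. The shares of all probe sets called higher in these 4 comparisons were 2.62%, 1.33%, 1.99% and 2.97%. Lower calls numbered 1 and 0 in STAT3-deficient cells and 1 and 3 in WT. The list takes no account of whether STAT5 raises or lowers a gene, so a higher call is not a measure of STAT5 activity. Which factor acted on these genes was not tested. Several genes hold more than one of these probe sets: of the 14 higher with IL-6 in WT, 6 belong to Mcl1, a survival factor of the Bcl2 family. Pim2, a survival kinase, rose in all 4 comparisons, by 2.43 ± 0.13 with IL-27 and 1.69 ± 0.13 with IL-6 in STAT3-deficient cells and by 2.20 ± 0.13 and 2.05 ± 0.13 in WT cells. Bcl6, the repressor that directs follicular helper cells, changed by 0.15 ± 0.16 with IL-6 in STAT3-deficient cells and rose by 1.79 ± 0.16 in WT, with a called difference of -1.64 ± 0.23 (adjusted p = 0.000325). Ccnd2, cyclin D2, differed in the opposite direction on 1434745_at, at 1.44 ± 0.17 in STAT3-deficient cells and 0.03 ± 0.17 in WT with IL-6 (difference 1.42 ± 0.23, adjusted p = 0.0018).

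Of 11 probe sets of IL-4 response genes, IL-6 gave 1 higher and 1 lower call in WT cells, where 2.97% and 3.22% of all probe sets were called. Batf, a factor of several T helper programs, rose by 1.72 ± 0.14 (adjusted p = 1.04e-07), and Gata3, the main factor of Th2 cells, fell by 1.02 (SE 0.19, adjusted p = 0.0016). In STAT3-deficient cells with IL-6 both were uncalled, at -0.09 ± 0.14 and 0.36 ± 0.19, and the differences between genotypes were called, at -1.81 ± 0.20 (adjusted p = 2.78e-05) and 1.39 ± 0.27 (adjusted p = 0.00697). The list gave 2 higher and no lower calls there, where 1.33% and 0.0968% of all probe sets were called. Both were Cd86, 1449858_at at 1.84 ± 0.43 (adjusted p = 0.0326) and 1420404_at at 1.10 ± 0.26 (adjusted p = 0.0406). Their IL-6 differences between genotypes were not called, at 1.54 ± 0.60 (adjusted p = 0.29) and 1.16 ± 0.37 (adjusted p = 0.144). With IL-27 the list gave 2 higher and no lower calls in either genotype. The shares of all probe sets were then 2.62% and 0.983% in STAT3-deficient cells and 1.99% and 1.07% in WT cells. Among 27 probe sets of genes reported to regulate Il7r, IL-6 gave 2 higher and 4 lower calls in WT cells, and IL-27 gave 0 and 2, where the shares of all probe sets were 2.97% and 3.22% with IL-6 and 1.99% and 1.07% with IL-27. Klf2, a factor of naive T cell homing, fell by 0.50 with IL-27 and by 0.62 with IL-6 in WT (SE 0.07 each). For Foxo1, which activates Il7r transcription in naive T cells, the probe set that changed most fell by 0.48 and by 0.51 (SE 0.12 each). The other Foxo1 probe sets are not given here, and the part of either gene in the Il7r values was not tested. Runx3 rose with IL-6 in WT by 1.48 ± 0.39 (adjusted p = 0.0275). With IL-6 in STAT3-deficient cells none of this list was called, and the genotype difference was called for Klf2 alone, at 0.62 ± 0.10 (adjusted p = 0.00154).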

How the data were processed

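Total RNA was labelled with biotin and hybridised to 18 arrays, per the labels. The deposited values are probe set intensities on a linear scale, made with GCOS per the submitters' processing notes; the sources used here do not give its version or settings. Their mean after trimming 2% at each end was 500 on every array, checked on the values. Of 45101 probe sets, 64 controls were left out. Of the rest, 34945 had 1 gene symbol, 932 several and 9160 none in the platform annotation used.

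Signals plus 32 were taken to log2 and quantile normalised, since deposited medians differed by 1.82-fold, and probe sets above the median of their own array on at least 3 arrays were kept (26860). The constant shrinks the changes of dim probe sets. In limma 3.58.1 (R 4.3.3), one mean per group was fitted to all 18 arrays, with eBayes and a variance trend (12 residual and 6.39 prior degrees of freedom). Tests of 9 comparisons were two-sided, with Benjamini-Hochberg adjustment over all probe sets tested in each. Precision is limited by the number of arrays, with a median SE of 0.207 between groups and 0.292 for interactions. Tested on simulated data for IL-6 against medium in WT (26860 probe sets, 200 changed), the fit called 20.3% of 1.5-fold changes, 59.4% at 2-fold and 94.6% at 4-fold, and 6.61% of calls were false. The data gave more calls in this comparison, 799 higher and 864 lower, than the 200 changes simulated. The shares in the data may therefore differ.

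The receptor genes, gene lists, comparisons and alternatives were chosen with earlier results of these data known. All receptor probe sets were described. Of each list, up to 4 called genes with the largest change were named, by the probe set that changed most, with its values elsewhere, and Crlf2 and Il13ra1 as partner chains. Genes most like a receptor were the 3 with the highest Pearson correlation with its brightest probe set. Lck, Tcf7, Lrrc32, Klrb1c and some other list genes had no probe set for that symbol alone and are not analysed here. Alternatives were other scalings, constants, filters and variance models, 1 probe set per gene, blocks by the number in the sample titles, and leaving out each array in turn. Promoter windows came from RefSeq, in which Il2rb had no entry used here, and the planned search of protein sequences was not run.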

Additional observations from a re-analysis of the deposited data

Results flagged for a closer look

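The effect of IL-6 differed between the genotypes in 3 receptor probe sets, tested as an interaction in limma, as STAT3-deficient minus WT. For Il4ra 1421034_a_at the difference was -0.59 (adjusted p = 0.0185), for Il7r 1448575_at it was 0.55 (adjusted p = 0.0283), and for Il21r 1450456_at it was -0.92 (adjusted p = 0.00902). In each, the STAT3-deficient effect lay nearer to 0 than the WT effect, at 0.13 against 0.72 for Il4ra, -0.10 against -0.65 for Il7r and -0.07 against 0.85 for Il21r.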

How the results depend on the processing

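Of 3147 receptor values under 30 alternatives, 3095 kept their side of the threshold, among them 63 uncalled values whose sign changed, 29 lost a call, 22 gained one, and 1 uncalled value became called with the opposite sign. Of 15 called values, 8 were called under each alternative that gave them a value, and 4 of these had a value under all 30. The value that turned was Il7r 1448575_at between genotypes in medium, at 0.12 after quantile normalisation (uncalled) and -0.64 with median centring (called), where the median of all probe sets also shifted. With 1 probe set per gene, which tests fewer probe sets, the receptor calls were 3 in place of 5 with IL-6 in WT, 1 in place of 3 with IL-27 in WT, 0 in place of 1 with IL-27 in STAT3-deficient cells and 0 in place of 1 between genotypes. Median centring gave 1 in place of 3 with IL-27 in WT, 1 in place of 2 for IL-27 against IL-6 in WT, 4 in place of 1 between genotypes and 0 in place of 3 for the IL-6 interaction. The deposited scaling gave 1 with IL-27 in WT and 5 between genotypes. No variance trend left 1 call of the IL-6 interaction, array weights gave 2 calls between genotypes, and a filter on at least 9 arrays left 0 with IL-27 in STAT3-deficient cells. Apart from the counts with fewer probe sets, the cause was not tested.

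With the title number as a replicate block, calls were 3 in place of 1 with IL-27 in STAT3-deficient cells, with the block over all arrays or within genotype, and 2 in place of 1 between genotypes. The calls gained with the block were all for Il7r. Deviations from the group mean correlated at -0.147 to 0.337 in 18 same-numbered pairs of one genotype, 10 of them over 0.1. Of 36 differently numbered pairs of one genotype, 6 were over 0.1. In WT cells, pairs numbered 1 stood at 0.165 to 0.209, those numbered 3 at 0.129 to 0.186 and those numbered 2 at -0.0116 to 0.0647. No differently numbered WT pair exceeded 0.0956. In STAT3-deficient cells differently numbered pairs reached 0.29. The sources used here do not say what the numbers mean, and the main fit did not use them.

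Leaving out 1 array at a time gave counts of 5 to 5 with IL-6 in WT, 1 to 3 with IL-27 in WT, 2 to 2 for IL-27 against IL-6 in WT, 0 to 1 with IL-6 and 1 to 3 with IL-27 in STAT3-deficient cells, 1 to 2 between genotypes (2 without WT IL-6 replicate 3 or STAT3-deficient medium replicate 1) and 1 to 3 for the IL-6 interaction (1 without WT IL-6 replicate 1 or STAT3-deficient medium replicate 2).

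With 3 arrays per group, changes near 1.5-fold were often missed in the simulated data. The probe sets of Il2ra, Il2rb and Il15ra were dim, with many values near the median of their arrays. Il15ra 1448681_at lay well below that median in medium, at 7.44 to 35.9 units over both genotypes.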

Other observations

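Receptor chains outside the gamma chain family were described for contrast, over 18 probe sets of 9 genes. With IL-27, 3 were called higher and none lower in STAT3-deficient cells, where 2.62% and 0.983% of all probe sets were called, and 3 higher and 1 lower in WT cells, where the shares were 1.99% and 1.07%. With IL-6, none was called in STAT3-deficient cells (1.33% and 0.0968% of all), and 3 higher and 1 lower in WT cells (2.97% and 3.22% of all). Ifnar2, a chain of the type I interferon receptor, rose with IL-27 in either genotype, by 0.92 ± 0.13 in STAT3-deficient cells (adjusted p = 0.000179) and 0.99 ± 0.13 in WT cells (adjusted p = 9.33e-05, limma, n = 3 per group). Il27ra, which encodes the ligand-specific chain for IL-27, fell with that cytokine in WT cells, at -0.59 ± 0.14 (adjusted p = 0.0232). Il6st, which encodes gp130, was called higher with IL-6 in WT cells on 1460295_s_at, at 0.88 ± 0.23 (adjusted p = 0.023).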
